A study of Mus musculus with 8 samples.

Results

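The Fc gamma receptors are the cell-surface proteins through which macrophages, microglia, neutrophils and NK cells bind the constant part of IgG antibodies. The set described here has 5 genes, found by symbol among the 31053 genes of the deposited matrices: the activating receptors Fcgr1, Fcgr3 and Fcgr4, the inhibitory receptor Fcgr2b, and Fcer1g, the shared signal chain that the activating receptors need. Fcgr1 is the high-affinity IgG receptor, Fcgr3 a low-affinity receptor found on phagocytes and NK cells, and Fcgr4 an intermediate-affinity receptor of phagocytes and neutrophils. An antibody-coated target bound by a phagocyte engages activating and inhibitory receptors together. The tyrosine-based activation motif of Fcer1g recruits the kinase Syk, and the inhibitory motif of Fcgr2b recruits the lipid phosphatase encoded by Inpp5d. The balance of both is known to set how readily such a cell engulfs, kills or releases cytokines.

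The cells were mouse CD45+ cells, that is blood-derived leukocytes and microglia, sorted magnetically from normal brain (4 labelled samples) and from tumour tissue of mice with glioma (4 labelled samples). The labels give no strain, genotype, age, treatment, time or tumour model, and neither group is said to share a treatment. The droplet kit reads the 3' end of transcripts and counts unique molecular identifiers (UMIs). Each group arrived as 1 matrix with no map from barcodes to animals, so there was 1 pooled library per group, no replicate and no test. Every interval below is a 95% interval of counting error only, and a difference between the groups cannot be told apart from a difference between 2 libraries.

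Sequencing gave 124023146 UMIs from normal brain and 159689787 from glioma. Barcodes with at least 1000 UMIs and at most 10% mitochondrial UMIs were kept, which gave 13680 control cells (median 6842 UMIs) and 11049 glioma cells (median 11332). The libraries shared 50 barcodes of at least 1000 UMIs, where 27.3 were expected by chance. Cells were put into classes by marker UMIs, with none of the 5 genes among the markers, and barcodes with strong markers of several lineages (216 control, 704 glioma) were set aside as mixed, as were phagocytes with markers of several narrower phagocyte classes (114 control, 45 glioma). Of the control cells, 90.7% fell in the microglia gate, where P2ry12, a defining microglial gene, stood at 2202 CPM (UMIs of a gene per 1e6 UMIs of the class) and Tmem119 at 1419 CPM. Of the glioma cells, 31.7% were macrophages without markers of a narrower class and 30.1% were monocyte-gated.

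The glioma microglia gate did not isolate microglia. Its 318 cells had P2ry12 at 55.8 CPM and the macrophage gene Ms4a7 at 236 CPM, and 168 of them passed on exactly 2 of the 9 marker genes. The 43 cells with at least 5 markers, a limit set after the data were seen, had P2ry12 at 162 CPM and Ms4a7 at 6.10 CPM, against 93.1 CPM of Ms4a7 in the glioma macrophages. They still held more of other macrophage and monocyte genes than control microglia with as many markers: Lyz2 at 1845 CPM against 417 CPM, Mrc1 at 56.4 CPM against 17.9 CPM and Ccr2 at 19.8 CPM against 4.29 CPM. The part of these in their receptor values was not tested. Values for these 43 cells are therefore given beside the whole gate.

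Fcgr2b (ENSMUSG00000026656; GRCm38 chr1:170958617-170976547, minus strand), Fcgr4 (ENSMUSG00000059089; chr1:171018920-171029761, plus strand) and Fcgr3 (ENSMUSG00000059498; chr1:171051174-171064935, minus strand) lie within 106 kb of each other. Fcer1g (ENSMUSG00000058715; chr1:171229572-171234365, minus strand) completes a span of 276 kb, and Fcgr1 (ENSMUSG00000015947; chr3:96282909-96293969, minus strand) lies on another chromosome. Fcgr2b overlaps the antisense gene Gm38204 on the opposite strand, and Fcgr4 and Fcgr3 each hold a small RNA gene. Fcgr2b and Fcgr3 have near-identical extracellular parts: 64 stretches of 90 bases were common to their coding transcripts, 1.67% of those of Fcgr2b and 3.93% of those of Fcgr3. Within the last 600 bases of their coding transcripts, the part a 3' kit mostly reads, 1.46% of the Fcgr2b stretches and 0% of the Fcgr3 stretches were shared. No other pair of the 5 genes shared a stretch of that length.

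The codons that give the set its activating and inhibitory sides are shown as they stand in the GENCODE M21 coding transcripts, 5′ to 3′, with the tyrosine codons in capitals. The Fcer1g stretch is 15 codons long, lies in exons 4 and 5 of Fcer1g-201 (chr1:171230067-171230072 and chr1:171229889-171229927, minus strand) and holds a pair of tyrosine codons. The Fcgr2b stretch is 6 codons long, lies in exon 8 of Fcgr2b-201 (chr1:170961071-170961088, minus strand) and holds 1.
Fcer1g: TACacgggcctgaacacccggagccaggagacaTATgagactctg
Fcgr2b: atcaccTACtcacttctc

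The microglia of normal brain carried Fcgr3 and Fcgr1, little Fcgr2b and almost no Fcgr4. In the 12413 microglia-gated control cells, Fcgr3 stood at 915 CPM (909 to 922), Fcgr1 at 284 CPM (281 to 288), Fcgr2b at 157 CPM (154 to 159) and Fcgr4 at 17.8 CPM (16.9 to 18.7). Fcer1g stood at 2225 CPM (2215 to 2234). At least 1 Fcgr4 UMI was found in 10.4% of these cells (median 6889 UMIs), against 1.49% of 134 endothelial-gated cells (median 7498 UMIs), a cell type that should lack it. The free RNA of the control library, read from barcodes of 20 to 99 UMIs, held Fcgr4 at 16.0 CPM (3.30 to 46.8, from 3 UMIs), an interval that includes the microglial level. The part of free RNA in the microglial Fcgr4 value was not tested.

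The glioma phagocytes carried Fcgr4 and Fcgr2b at several times those levels. In the 3501 glioma macrophages, Fcgr4 stood at 375 CPM (370 to 381) and was found in 88.2% of cells (median 14585 UMIs). In glioma T cells, which should lack it, Fcgr4 was found in 8.97% (median 7451.5 UMIs). Fcgr2b stood at 509 CPM (503 to 515) in the macrophages, Fcgr3 at 780 CPM (772 to 787), Fcgr1 at 188 CPM (184 to 191) and Fcer1g at 2317 CPM (2304 to 2330). The 3330 monocyte-gated cells had Fcgr4 at 398 CPM, Fcgr2b at 519 CPM, Fcgr3 at 850 CPM, Fcgr1 at 272 CPM and Fcer1g at 2518 CPM. With every cell thinned to 1000 UMIs, Fcgr4 was seen in 29.8% of glioma macrophages and 1.72% of control microglia, and Fcgr2b in 40.1% and 14.4%.

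Against control microglia, glioma macrophages differed by at least 2-fold in 2 of the 5 genes, Fcgr4 and Fcgr2b, both higher. Of all 14438 genes compared, 48.4% differed by that much, 15.0% higher and 33.3% lower, so a 2-fold difference was common in this pair and the count of 2 is not a result about the set. The log2 ratio of Fcgr4 was 4.40 (4.33 to 4.48), a 21.1-fold difference exceeded by 2.60% of the genes compared. The log2 ratio of Fcgr2b was 1.70 (1.67 to 1.73), a 3.24-fold difference exceeded by 9.68% of genes. Fcgr1 was at -0.60 (-0.63 to -0.57), Fcgr3 at -0.23 (-0.25 to -0.21) and Fcer1g at 0.06 (0.05 to 0.07). The median gene stood at -0.40 in this pair. Relative to that median Fcgr3 stood at 0.16 in place of -0.23, a change of sign, and Fcgr1 at -0.20, while Fcgr4 at 4.80 and Fcgr2b at 2.09 remained over 2-fold higher. Centring also moved the split of all genes from 2172 higher and 4815 lower to 3035 higher and 3670 lower.

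**Figure D1:**
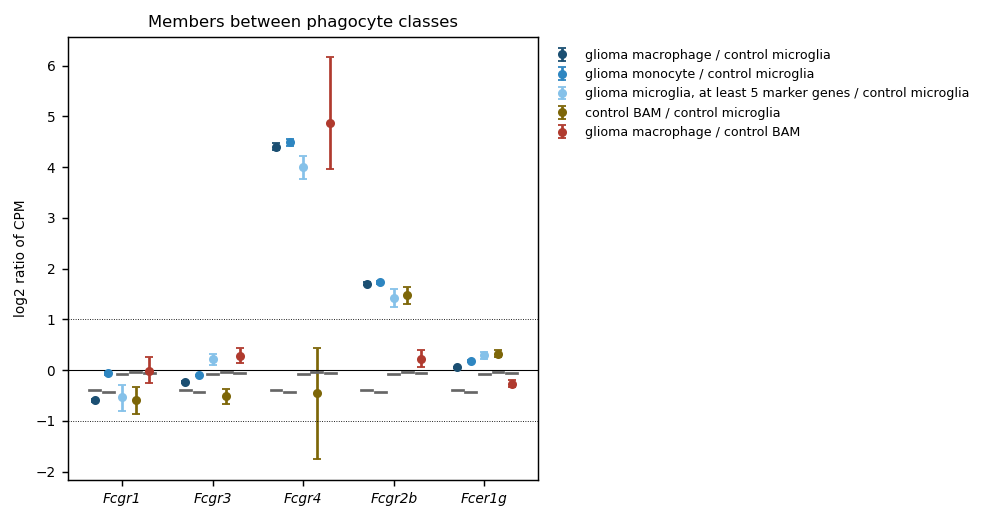
Log2 ratio of CPM of each gene in 5 pairs of phagocyte classes. Points are ratios of class sums, bars 95% counting intervals, grey ticks the median of all genes in that pair, and dotted lines a 2-fold difference. Fcgr4 lies near 4 or above in each ratio of a glioma class to a control class, and Fcgr2b is over 2-fold higher than in control microglia also in the border-associated macrophages (BAM) of normal brain.

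The same pair of genes stood out when the glioma side was narrowed or exchanged. Monocyte-gated glioma cells against control microglia had Fcgr4 at 4.48 and Fcgr2b at 1.73, 2 of 5 again higher, with 50.3% of genes at least 2-fold different and 15.4% higher. The 43 glioma cells with at least 5 microglia markers had Fcgr4 at 283 CPM and Fcgr2b at 421 CPM, log2 ratios of 3.999 (3.77 to 4.22) and 1.43 (1.25 to 1.60), with 35.5% of genes at least 2-fold different and 17.3% higher. The free RNA of the glioma library held Fcgr4 at 222 CPM (194 to 253) and Fcgr2b at 348 CPM (313 to 386). The part of free RNA in the values of these cells was not tested. The 70 cells with at least 4 markers gave the same 2 genes past 2-fold, where 34.3% of genes were. In the whole gate it was again these 2, where 42.9% of genes were. Fcgr3 of the 43 cells, at 1064 CPM, was above the 780 CPM of glioma macrophages. Glioma macrophages against the whole glioma microglia gate differed by under 2-fold in all 5 genes, the widest being Fcgr4 at 0.34, with 9.05% of genes at least 2-fold different.

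The border-associated macrophages of normal brain, which live in the meninges and around vessels, separated Fcgr4 from Fcgr2b. In the 77 cells of this gate, Fcgr2b stood at 435 CPM (386 to 488), near the glioma macrophages, and Fcgr4 at 12.2 CPM (5.25 to 24.0), near control microglia. Fcgr3 stood at 639 CPM, Fcgr1 at 189 CPM and Fcer1g at 2787 CPM. Against control microglia, 1 of the 5 genes was at least 2-fold different (36.4% of all genes, 19.9% higher), Fcgr2b at a log2 ratio of 1.47 (1.30 to 1.64). Glioma macrophages against these cells had Fcgr4 at 4.86 (3.97 to 6.16) and Fcgr2b at 0.22 (0.06 to 0.40), and Fcgr4 was the 1 gene of 5 past 2-fold (37.4% of all genes, 16.7% higher). The Fcgr4 value of this gate rests on 8 UMIs and moved to 18.9 CPM with a limit of 5% mitochondrial UMIs, which turned its log2 ratio against control microglia from -0.46 to 0.17.

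**Figure D2:**
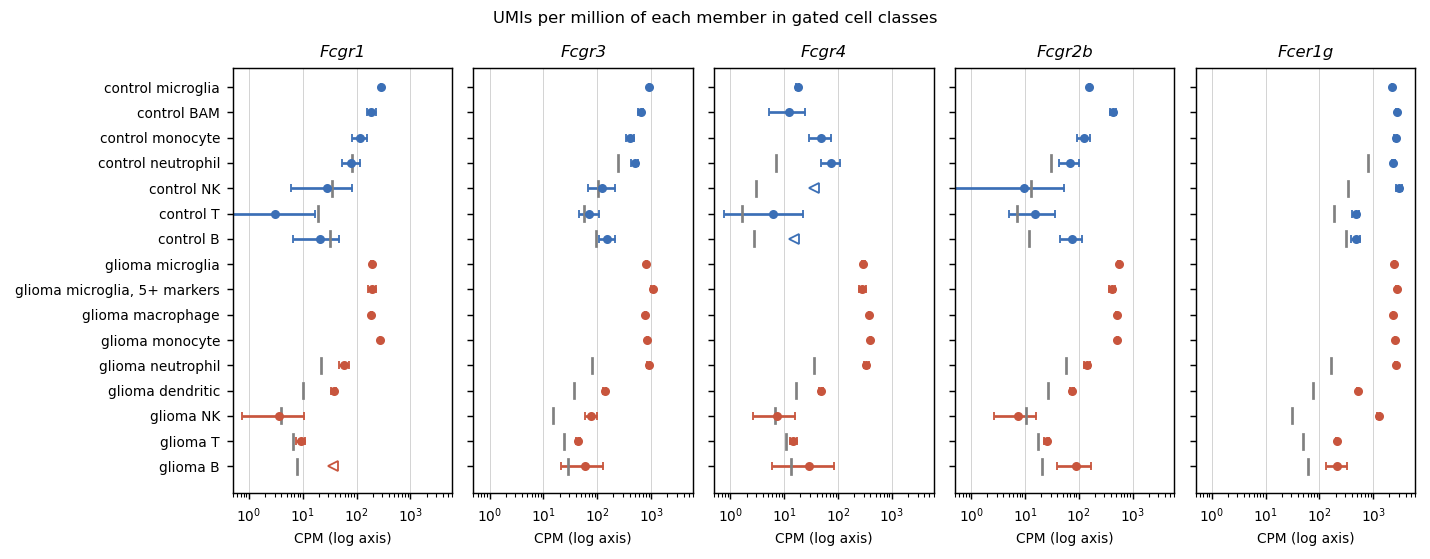
CPM of each of the 5 genes (log axis) in gated classes of the control (blue) and glioma (red) libraries. Points are class sums, bars 95% Poisson intervals, open triangles upper limits where no UMI was found, and grey ticks the most that free RNA could give in classes that are not phagocytes. Fcgr4 is at 375 CPM in glioma macrophages and 17.8 CPM in control microglia, and Fcer1g is at 1271 CPM in glioma NK cells, far to the right of its tick.

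The activating to inhibitory ratio, the UMIs of Fcgr1, Fcgr3 and Fcgr4 per UMI of Fcgr2b, does not depend on how a library is scaled. The capture of each transcript may differ, so its value is compared between classes and not read as a ratio of molecules. It was 7.76 (7.63 to 7.90) in control microglia, 2.64 (2.60 to 2.68) in glioma macrophages and 2.93 (2.88 to 2.97) in glioma monocytes. The log2 difference between glioma macrophages and control microglia was -1.56. The lowest ratio among the phagocyte gates was in the border-associated macrophages of normal brain, at 1.93 (1.67 to 2.23). The 34 monocyte-gated cells of normal brain gave 4.55 (3.33 to 6.33), with Fcgr4 at 48.4 CPM (29.1 to 75.6) and Fcgr2b at 125 CPM (92.3 to 165), both below the glioma monocytes. These monocyte gates held unlike cells, with S100a9 at 21133 CPM in control and 67.8 CPM in glioma, and Lyz2 at 28795 CPM and 5697 CPM. The part of this in the receptor values was not tested. The 60 control macrophages without markers of a narrower class gave 2.72 (1.70 to 4.49), an interval that includes the glioma macrophages. In this gate Fcgr3 stood at 302 CPM, Fcgr1 at 158 CPM and Fcgr2b at 189 CPM, where free RNA could give up to 418, 142 and 52.8 CPM. The part of free RNA in this ratio was not tested. The glioma microglia gate gave 2.35, and its 43 cells with at least 5 markers gave 3.67 (3.21 to 4.20).

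The make-up of the activating sum differed as well. Fcgr3 made up 75.2% of activating UMIs in control microglia and 58.1% in glioma macrophages. Fcgr1 made up 23.4% and 14.0%, and Fcgr4 1.46% and 28.0%. Per Fcgr2b UMI, glioma macrophages had 0.369 Fcgr1, 1.53 Fcgr3 and 0.737 Fcgr4 UMIs, where control microglia had 1.81, 5.84 and 0.113. Thus Fcgr4 per Fcgr2b was higher in the tumour library while the other ratios were lower. Fcer1g per activating UMI was 1.83 in control microglia and 1.73 in glioma macrophages.

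**Figure D3:**
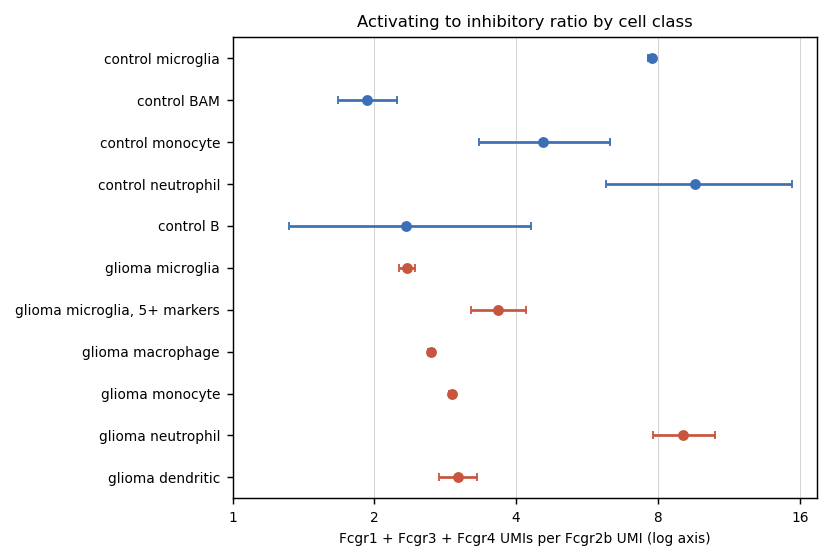
Activating to inhibitory ratio (log axis) by class in the control (blue) and glioma (red) libraries, with exact 95% intervals of counting error. T and NK cells, whose Fcgr2b lies near free RNA, and classes with under 20 UMIs are left out. Control microglia and the neutrophils of both libraries lie near 8 or above, and the glioma macrophages, monocytes and dendritic cells lie near 3. The part of free RNA in the neutrophil ratios was not tested.

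Counted by cell, UMIs of both kinds of receptor, and of Fcgr2b alone, were found in a larger share of glioma macrophages than of control microglia. At 1000 UMIs per cell, 57.1% of control microglia showed activating UMIs alone, 10.1% showed both kinds, 4.37% Fcgr2b alone and 28.5% neither. In glioma macrophages, 39.9% showed activating UMIs alone, 29.0% both kinds, 11.1% Fcgr2b alone and 20.02% neither. The product of the share with activating UMIs and the share with Fcgr2b was 9.70% in control microglia and 27.6% in glioma macrophages, close to the shares with both. Glioma monocytes had 43.8% activating alone and 32.6% both. In glioma T cells, 6.28% showed activating UMIs alone, 0.489% both and 1.63% Fcgr2b alone. The product of the shares in these T cells was 0.144%, below the share with both. They are not a plain background for free RNA, since their receptor levels stood above what free RNA could give. Thinned to 2000 UMIs, 23.6% of control microglia and 56.2% of glioma macrophages showed both kinds. The shares thus move with depth, and control microglia were below glioma macrophages at both depths. The order of all classes did not hold. The glioma microglia gate had 35.2% at 1000 UMIs, above the glioma macrophages, and 54.7% at 2000 UMIs, below them.

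**Figure D4:**
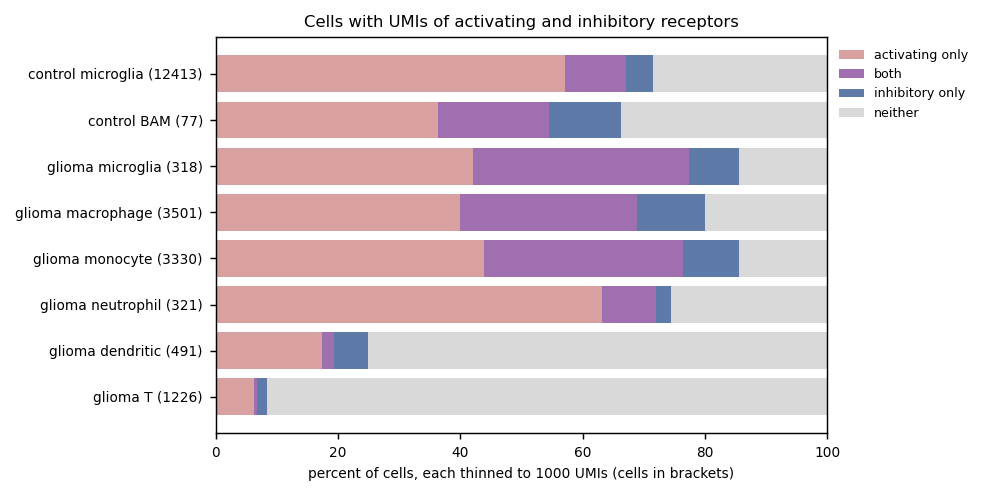
Percent of cells of each class with UMIs of activating receptors alone, of both kinds, of Fcgr2b alone or of neither, after thinning each cell to 1000 UMIs. Both kinds were seen in 10.1% of control microglia and 29.0% of glioma macrophages, and 63.2% of glioma neutrophils showed activating receptors alone.

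Within control microglia, cells with an interferon signature had more Fcgr1 and Fcgr4 and no more Fcgr3 or Fcgr2b. Ifit3 is an interferon-induced gene, and 120 control microglia had at least 2 Ifit3 UMIs where 12054 had none, a split made after the data were seen. Fcgr1 stood at 671 CPM in the first and 277 CPM in the second, a log2 ratio of 1.28 (1.18 to 1.38). Fcgr4 stood at 53.9 CPM (67 UMIs) and 16.8 CPM, a log2 ratio of 1.69 (1.31 to 2.04), and was found in 43 of the 120 cells. The median depth was 9130.5 UMIs in the Ifit3 cells and 6853 in the others. Fcgr3 was at -0.05, Fcgr2b at -0.09 and Fcer1g at 0.12. Thus 2 of the 5 genes were at least 2-fold higher, where 15.3% of all genes were 2-fold different and 10.6% higher. The activating to inhibitory ratio was 10.9 in the Ifit3 cells and 7.70 in the others. The Ifit3 cells had P2ry12 at 1525 CPM against 2219, Ms4a7 at 59.6 CPM against 9.07, and the summed 5 monocyte markers at 41.1 CPM against 8.42. The part of these in the result was not tested, and which animals gave the 120 cells is not known here.

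The proximal promoter of Fcgr4 holds interferon-type letters and is shown for that reason. The run is the 250 bases before the RefSeq start (GRCm38.p6), 5′ to 3′ on the gene's own strand, with matches to the searched motifs in capitals. Searched on both strands were the core of interferon-stimulated response elements (GAAA, any 2 bases, GAAA) and GAGGAA, the core bound by the myeloid factor PU.1. Fcgr4 (chr1:171018676-171018925, plus strand) holds the response element core at bases -73 to -64 and GAGGAA on the opposite strand at -22 to -17.
Fcgr4: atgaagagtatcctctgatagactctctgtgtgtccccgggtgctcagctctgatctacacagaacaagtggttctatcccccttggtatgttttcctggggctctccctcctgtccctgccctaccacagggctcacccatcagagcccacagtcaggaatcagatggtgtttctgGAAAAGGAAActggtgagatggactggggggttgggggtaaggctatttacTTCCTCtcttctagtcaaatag

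Of 32851 promoter windows of 250 bases, 2.98% held the response element core and 23.3% held GAGGAA on either strand. The windows of Fcgr2b and Fcer1g held neither motif. The window of Fcgr1 held GAGGAA on the opposite strand at -55 to -50 and not the response element core. Both windows of Fcgr3 held GAGGAA on the opposite strand and not the response element core. These windows overlap, and the match at -6 to -1 of the first is the same stretch as that at -15 to -10 of the second. These matches describe the letters of the windows and were not tested as binding sites.

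Other splits of control microglia gave differences under 2-fold in all 5 genes. Cells with at least 2 UMIs of Il1a, a cytokine gene, had Fcgr1 at 216 CPM against 356 CPM in cells without it (log2 ratio -0.72, median of all genes -0.26, 10.4% of genes 2-fold different). Cells with Cd74, the invariant chain of MHC class II, had Fcgr4 at 25.5 CPM against 15.9 CPM (0.68) and Fcgr1 at -0.41, with 8.00% of genes 2-fold different. For the immediate-early gene Fos the widest of the 5 was Fcgr1 at -0.47 (6.16% of genes), and for the lipid carrier Apoe it was Fcgr1 at -0.19 (4.62%).

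Within the glioma macrophages and monocytes the widest differences were smaller than in the Ifit3 split of control microglia, and were those of Fcgr1 and Fcgr4. Pooled, these cells were split by 11 genes of known phagocyte states, and no gene of the set reached 2-fold in any split. With 2.16% to 9.40% of all genes past 2-fold, that count is near the background and is not a result about the set. The cells with Cxcl9, a chemokine gene induced by interferon gamma, had the highest Fcgr4 ratio, 0.49, with Fcgr2b at -0.21 (6.32% of genes 2-fold different). Within macrophages alone the Cxcl9 split gave Fcgr4 at 0.53 and Fcgr2b at -0.19 (5.10%), and an activating to inhibitory ratio of 2.79 against 2.32. Their median depths were 16801 and 10699 UMIs.

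Fcgr1 was higher in cells with monocyte genes and in cells with Rsad2, and was not higher in the pooled cells with Cxcl9. It stood at 0.66 in cells with Ly6c2, the surface marker of inflammatory monocytes (5.80% of genes), at 0.56 with Chil3 (6.71%) and at 0.54 with the interferon-induced gene Rsad2 (5.16%). Fcgr4 stood at 0.23 (0.19 to 0.28) in the Rsad2 split. In the pooled Cxcl9 split, Fcgr1 stood at -0.17 (-0.21 to -0.12), where the median gene was at 0.07. Within macrophages alone the Cxcl9 split gave Fcgr1 at 0.07 (-0.003 to 0.14), with the median gene at 0.06. Ly6c2 and Chil3 are among the 5 markers of the monocyte gate, so their splits and the next pair overlap and are not separate results. Monocyte-gated against macrophage cells gave Fcgr1 at 0.53 and the other 4 genes between 0.03 and 0.13, with 4.38% of genes 2-fold different. Cells with Arg1, the arginase gene of tissue-repair and tumour macrophages, had Fcgr2b at 0.31 and Fcgr3 at 0.27 (3.48%), and within macrophages alone no gene of the set reached 2-fold either (4.06%). With the matrix protease gene Mmp13, Fcgr1 stood at -0.24 and Fcgr4 at 0.24 (5.66%). With the chemokine gene Ccl8 the widest was Fcgr4 at 0.20 (8.34%), and with the fractalkine receptor Cx3cr1 it was Fcgr4 at -0.19 (6.55%). For Inhba, an activin chain, the widest was Fcgr3 at 0.20 (4.88%). Proliferating cells, with Mki67, had all 5 genes between -0.39 and -0.32 where the median gene was at 0.12 (9.40%). Cells with Nr4a2, the nuclear receptor named in the study's title, had the 5 genes between -0.11 and -0.02 (2.16%).

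**Figure D5:**
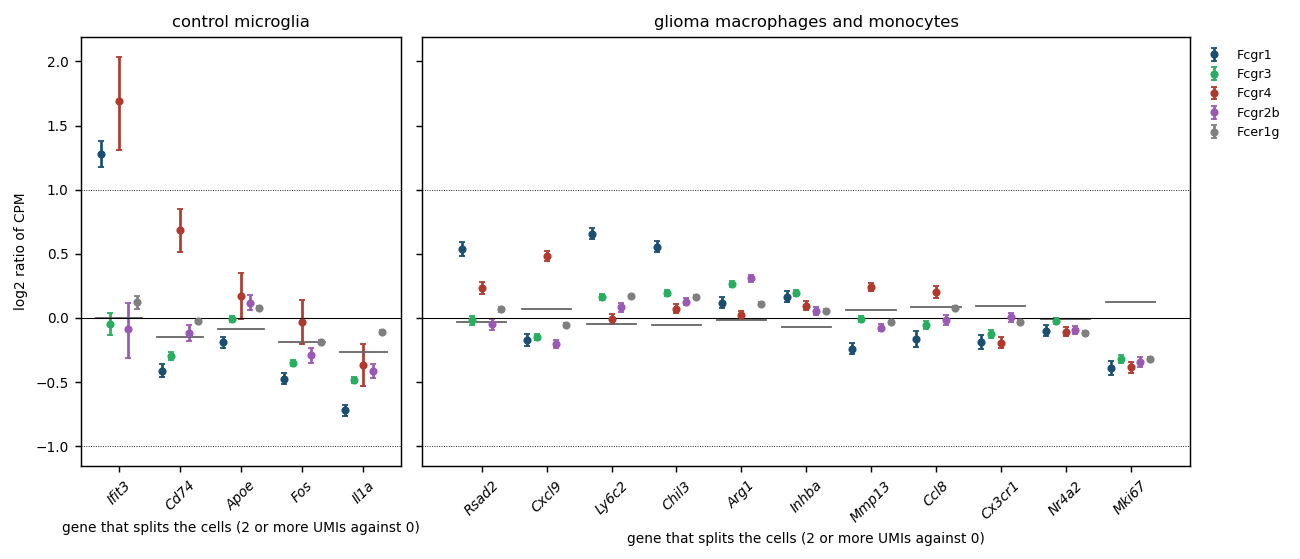
Log2 ratio of CPM of each gene between cells with at least 2 UMIs and cells with 0 UMIs of the gene on the horizontal axis, in control microglia (left) and glioma macrophages and monocytes (right). Bars are 95% counting intervals, grey lines the median of all genes and dotted lines a 2-fold difference. Fcgr1 at 1.28 and Fcgr4 at 1.69 in the Ifit3 split are the only points past 2-fold in these 16 splits.

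Neutrophils carried the activating receptors with little inhibitory receptor. The 321 glioma neutrophils had Fcgr3 at 897 CPM (846 to 949), Fcgr4 at 337 CPM (306 to 369), Fcer1g at 2632 CPM, Fcgr2b at 143 CPM (123 to 165) and Fcgr1 at 58.9 CPM (46.5 to 73.5). Their activating to inhibitory ratio was 9.06 (7.79 to 10.6), and that of 33 control neutrophils was 9.57 (6.21 to 15.4). In the control gate Fcgr1 stood at 80.4 CPM, Fcgr3 at 500 CPM and Fcgr2b at 68.5 CPM, where free RNA could give up to 81.5, 240 and 30.3 CPM. The C1q UMIs of the glioma gate would allow up to 16.3% free RNA. The free RNA of that library held Fcgr2b at 348 CPM and Fcgr1 at 132 CPM. The part of free RNA in the ratio of either neutrophil gate was not tested. In glioma neutrophils against glioma macrophages, Fcgr1 at -1.66 (-2.01 to -1.35) and Fcgr2b at -1.83 (-2.05 to -1.63) were over 2-fold lower, and Fcgr3 at 0.20 and Fcgr4 at -0.16 were not (43.6% of genes 2-fold different, 26.9% lower). Averaging over cells in place of summing gave Fcgr1 at 28.5 CPM, a log2 ratio of -2.72. Fcgr4 in control neutrophils was 74.4 CPM (48.2 to 110), lower than in glioma neutrophils, and P2ry12 stood at 640 CPM in that control gate and at 7.55 CPM in the glioma gate. The part of microglial RNA in this difference was not tested.

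Glioma NK cells showed the signal chain and Fcgr3 well above free RNA, and the other receptors near it. In 105 glioma NK cells, Fcer1g stood at 1271 CPM (1195 to 1351), where free RNA could give at most 30.7 CPM, and Fcgr3 at 77.9 CPM (60.01 to 99.5) against 14.8 CPM. Fcgr1 at 3.65 CPM, Fcgr4 at 7.31 CPM and Fcgr2b at 7.31 CPM had counting intervals that include what free RNA could give (4.01, 6.75 and 10.6 CPM). Fcer1g per activating UMI was 14.3, against 1.73 in glioma macrophages. The 22 control NK cells had Fcer1g at 2999 CPM (2676 to 3350). Against glioma T cells, Fcer1g at a log2 ratio of 2.62 (2.51 to 2.72) was over 2-fold higher and Fcgr3 stood at 0.85 (0.45 to 1.22). Fcgr1 at -1.10 (-3.62 to 0.27) and Fcgr2b at -1.69 (-3.26 to -0.66) were past 2-fold lower, on 3 and 6 UMIs in the NK cells. Averaging over cells moved Fcgr2b to -0.73, under 2-fold. Thus 3 of 5 genes were past 2-fold, where 19.8% of all genes were and 8.66% were higher. Fcgr1 and Fcgr2b lay near what free RNA could give in both classes, so their place in this count is not read as a receptor difference.

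Dendritic cells held all 5 genes at lower levels than macrophages. The 491 glioma dendritic cells had Fcgr3 at 137 CPM, Fcgr2b at 74.0 CPM, Fcgr4 at 48.2 CPM, Fcgr1 at 37.7 CPM and Fcer1g at 514 CPM, each over 2-fold lower than in macrophages (25.0% of genes 2-fold different, 14.0% lower). The cross-presenting cells, those with Xcr1 or Clec9a, were lowest, with Fcer1g at 216 CPM and Fcgr1 at 13.9 CPM. Cells with the migration genes Ccr7 or Fscn1 had Fcer1g at 543 CPM and Fcgr1 at 38.3 CPM. The activating to inhibitory ratio of all dendritic cells was 3.01 (2.74 to 3.30), and free RNA could give at most 26.4 CPM of their Fcgr2b.

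In glioma T cells all 5 genes stood above what free RNA could give, 3 of the receptors by under 1.5-fold. In B cells Fcgr2b stood further above it. The 1226 glioma T cells had Fcgr2b at 25.4 CPM, Fcgr4 at 14.7 CPM and Fcgr1 at 9.10 CPM, where free RNA could give up to 17.2, 10.97 and 6.50 CPM, each under 1.5 times below the level. Fcgr3 at 43.4 CPM and Fcer1g at 207 CPM stood further above what free RNA could give, 24.1 and 49.9 CPM. B cells, in which Fcgr2b is known as the only Fc gamma receptor, had Fcgr2b at 74.2 CPM (44.0 to 117) in 42 control cells and 87.6 CPM (40.1 to 166) in 29 glioma cells, where free RNA could give up to 11.7 and 20.7 CPM. The counts behind these values were 18 and 9 UMIs. The control B cells also held Fcgr3 at 153 CPM (107 to 210) and Fcer1g at 474 CPM (392 to 569), where free RNA could give up to 92.7 and 308 CPM. The 25 glioma plasmacytoid dendritic cells had Fcer1g at 905 CPM (787 to 1035), where free RNA could give up to 89.3 CPM.

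Ordered by Fcgr4, the classes with at least 50 cells ran from glioma monocytes (398 CPM) and macrophages (375 CPM) to control endothelial cells (1.19 CPM). Glioma neutrophils at 337 CPM and the glioma microglia gate at 297 CPM came next. The intervals of control microglia and control border-associated macrophages overlapped for Fcgr4. For Fcgr2b the order began with the glioma microglia gate (558 CPM), glioma monocytes (519 CPM), glioma macrophages (509 CPM) and control border-associated macrophages (435 CPM), of which only the monocytes and macrophages had overlapping intervals. For Fcer1g the highest were control border-associated macrophages at 2787 CPM and glioma neutrophils at 2632 CPM, with overlapping intervals, and the other named phagocyte gates lay between 1569 CPM and 2518 CPM.

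Across the 11 classes with at least 50 cells, the genes most like each member were found by Pearson correlation of log2(CPM + 1) among 5586 genes. The points come from 2 libraries, share a library within each and differ in depth, so the values describe these classes only. Fcgr1 was most like the lysosomal genes Ctsz (0.976) and Ctss (0.974). Fcgr2b was most like Ccl9 (0.980) and Ms4a6d (0.979), Fcgr3 like Hk3 (0.976) and Lyn (0.956), and Fcgr4 like Pilra (0.972) and Tnfaip2 (0.967). Fcer1g was most like Tyrobp (0.960), the other activating adapter of myeloid cells. Among the members themselves the highest value was 0.938 for Fcgr1 with Fcgr2b and the lowest 0.606 for Fcgr1 with Fcgr4.

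The partners of the receptors did not move as one group between control microglia and glioma macrophages. Of 11 adapters and receptors that signal through Fcer1g or like it, 9 were compared, and 5 were at least 2-fold higher and 1 lower (median log2 ratio 2.17, all genes -0.40), where 15.0% of all genes were higher and 33.3% lower. The C-type lectins that pair with Fcer1g led: Clec4n at 469 CPM against 2.58 CPM (7.50), Clec4d at 6.31 and Clec4e at 5.44. The lowest were Ncr1 at -2.42, which rests on 2 and 22 UMIs, Tyrobp at -0.74 and Hcst at 0.09.

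Of the 20 genes of the activating signal chain, 4 were at least 2-fold higher and 2 lower, with a median of -0.28. The share higher was near the 15.0% of all genes, and 33.3% of all genes were lower. The highest were the exchange factor Vav3 at 5.30, Cybb, the catalytic part of the phagocyte oxidase, at 583 CPM against 18.1 CPM (5.01), and the kinase Fgr at 3.38. The lowest were Pik3cg at -1.82, Vav1 at -1.72 and Pik3r5 at -0.93. Syk itself stood at 125 CPM against 91.7 CPM (0.45).

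Of 14 genes of the inhibitory chain, 3 were at least 2-fold higher and 3 lower, with a median of -0.11. That is near the 48.4% of all genes that differed 2-fold in this pair, 15.0% higher and 33.3% lower. The docking protein Dok2 at 6.11 and the inhibitory receptors Pirb at 3.26 and Lilrb4a at 2.65 were highest. Inpp5d, the phosphatase that Fcgr2b recruits, was lowest at 84.7 CPM against 343 CPM (-2.02), before Lair1 at -1.63 and Sirpa at -1.47. Thus in glioma macrophages Fcgr2b was higher and the transcript of its main effector was lower than in control microglia.

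Of 11 interferon gamma targets, 10 were compared and 8 were at least 2-fold higher, with none lower and a median of 3.64 (15.0% of all genes higher). The highest were Cxcl9 at 1218 CPM against 0.957 CPM (10.3), Iigp1 at 6.85 and Gbp4 at 6.53. The lowest were Cxcl10 at 0.29, Irf1 at 0.92 and Gbp5 at 1.60. Against the border-associated macrophages of normal brain 9 of 10 were higher (median 3.39, 16.7% of all genes higher), and in the Ifit3 cells of control microglia 8 of 10 were higher and 1 lower (median 1.57, 10.6% of all genes higher).

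Of 13 other Fc receptors and Fc receptor-like genes, 8 were compared, 2 were higher and 4 lower, with a median of -1.86, where 15.0% of all genes were higher and 33.3% lower. The highest were Fcrlb at 6.18 (4.47 CPM against 0.0563 CPM), Fcrla at 1.34 and the cytosolic antibody receptor Trim21 at 0.34. Fcrls, a secreted Fc receptor-like gene used as a microglial marker, had the lowest ratio, at 5.61 CPM against 2351 CPM (-8.71). Fcmr, the IgM receptor, had no UMI in the macrophages, which made it at least 14.7-fold lower when set against 3 counts in that class, and Fcrl1 stood at -5.25. Fcgrt, the neonatal receptor that recycles IgG inside cells, stood at 76.5 CPM against 102 CPM (-0.41).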

How the data were processed

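The authors deposited raw counts, the UMIs of each gene at each droplet barcode, in 1 unfiltered matrix per group. Cell Ranger 3.0.2, STAR and Seurat 3, with the builds mm10 and GRCh38, are listed in the submitters' processing notes; all gene identifiers were mouse. Labels name either kit version 2 or 3, with no split. Barcodes with at least 1000 UMIs and at most 10% mitochondrial UMIs were kept. A class gate needed at least 3 UMIs over at least 2 marker genes of its list, and where several lists passed, 3 times the next list; other barcodes were mixed, and no doublet caller was run. Phagocytes were divided into microglia, border-associated macrophages, monocytes and the rest. Gated classes are not the authors' annotation. Counts were summed per class and given as CPM (per 1e6 UMIs of the class) with exact Poisson intervals; shares have exact Clopper-Pearson intervals and ratios exact conditional binomial intervals, each with 95% confidence. Log2 ratios used 0.5 UMI as a prior count and genes with at least 20 UMIs over both sums. The most that free RNA could give was its level scaled by the C1q UMIs of the class. Whether this is a true upper limit was not tested, and in glioma T cells every gene of the set stood above it.

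The members and gene lists were chosen with earlier results of these data known, and the splits, subsets and pairs with stricter microglia were chosen after seeing the data. Named genes were the members, the 3 highest and 3 lowest of each list in the pair of glioma macrophages and control microglia, and the 5 most like each member, of which the first are printed; Syk, Fcgrt and marker genes were named beyond this rule. A gene of the interferon gamma list is not reported here and was left out of its counts. On simulated sums for that pair (14397 genes, 200 changed 4-fold), the intervals held the true ratio for 95.5% of genes, and 99.0% of the changed genes were past 2-fold. The sums were drawn with the counting error that the intervals assume, without variation between cells, animals or libraries. They check the computation only and say nothing on the difference between the 2 libraries. Promoters are RefSeq windows and transcripts GENCODE M21. Python 3.11.15, numpy 2.4.6, scipy 1.17.1 and pandas 2.3.3 were used.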

Additional observations from a re-analysis of the deposited data

How the results depend on the processing

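No paired analysis was possible because each group is 1 pooled library whose barcodes carry no sample number. Alternatives were 2000 UMIs per barcode, 5% mitochondrial UMIs, gates of 5 UMIs, no barcodes with 300 UMIs in the other library, no 5% deepest barcodes, means over cells, centring, other UMI minimums and thinning to 2000 UMIs. Across 50 ratios (the 5 genes in 9 class pairs and in the Ifit3 split), none past 2-fold changed sign, and the other splits were not rerun. For glioma macrophages against control microglia, 2000 UMIs gave a log2 ratio of 0.047 for Fcer1g. The 5% mitochondrial limit gave -0.65 for Fcgr1, 1.75 for Fcgr2b and -1.65 for the difference of the activating to inhibitory ratio. Without the deepest 5% of barcodes, Fcgr2b was at 1.73 and that difference at -1.59. Means over cells gave -0.21 for Fcgr3, 4.50 for Fcgr4, 1.75 for Fcgr2b, 0.13 for Fcer1g and -1.59 for the difference. Centring gave -0.20 for Fcgr1, 0.16 for Fcgr3, 4.80 for Fcgr4, 2.09 for Fcgr2b and 0.45 for Fcer1g. With no minimum of UMIs, 7229 genes in place of 4815 were at least 2-fold lower, since more genes were compared. Of 410 ratios over these alternatives, centring aside, 4 moved by over 1.5-fold: Fcgr4 in both pairs with border-associated macrophages, Fcgr1 in neutrophils, and Fcgr2b in NK against T cells (-0.73 in place of -1.69 with means over cells). The 60 control macrophages (median 1291.5 UMIs) had Fcgr4 at 52.8 CPM, and at 9.95 CPM without their deepest 5%. In the Ifit3 split, centring aside, Fcgr1 ranged from 1.23 to 1.42 and Fcgr4 from 1.65 to 2.03.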

Other observations

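Of the class-switched antibody genes, whose products are the ligands of these and related receptors, the most abundant in each library came almost wholly from 1 barcode. In the glioma library, 980 of the 1001 Ighg2c UMIs, the heavy chain of an IgG subclass, were at 1 barcode, which also held 101 UMIs of Jchain, the joining chain of secreted antibodies, and passed no class gate. In the control library, 1782 of the 1811 Igha UMIs, the heavy chain of IgA, were at 1 barcode with 359 Jchain UMIs. Among the other IgG heavy chains, Ighg1 had 4 UMIs in control and 0 in glioma cells, Ighg3 had 0 and 2, and Ighg2b had 43 and 6. Ighm, the heavy chain of IgM, was at 272 CPM in control microglia and 11.1 CPM in glioma macrophages. In control B cells it was at 2260 CPM, in control T cells at 163 CPM and in control border-associated macrophages at 160 CPM. At least 1 Ighm UMI was found in 9715 of the 13680 control cells. The part of free RNA in these values was not tested.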
